A study of Rattus norvegicus with 6 samples.

Results

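Amino acid and creatine metabolism was followed through 55 enzyme genes in the kidneys of male Han:SPRD rats of the Cy/+ and +/+ genotypes. Cy/+ rats are heterozygous for a missense mutation in Anks6 and develop a slowly progressing cystic kidney disease, and +/+ rats are their wild-type controls. Each genotype was represented by 3 kidney samples, each on 1 Affymetrix rat genome array. The labels give an age of 10 weeks for both genotypes and no treatment, whereas the study's methods name a younger age for the array samples. No source used here says whether the 3 samples of a genotype came from separate rats, so the p-values speak only of how these samples scatter, and that scatter may be technical.

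The 55 genes were taken by gene symbol in 8 groups, namely branched-chain amino acid breakdown, glycine and serine, arginine and creatine, proline, methionine, aromatic amino acids, glutamine and transamination, and 4 other enzymes. A probe set named for 1 gene alone was found for 54 of them, of 14217 genes named in the series. Pycr1, an enzyme of proline synthesis, had no probe set named for it in the annotation used and was not analysed here. Mut, which encodes methylmalonyl-CoA mutase, was found under its current symbol Mmut. Where a gene had several probe sets the brightest stood for it. Signal is in arbitrary units on a linear scale, and signals of different probe sets were not compared with each other.

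The proximal tubule of the kidney takes filtered amino acids back from the tubular fluid and is itself a site of their metabolism. It makes arginine from citrulline, makes guanidinoacetate as the precursor of creatine, converts glycine into serine, and handles glutamine and glutamate in acid-base balance. It also breaks down branched-chain amino acids, proline, hydroxyproline and tyrosine, and it degrades myo-inositol through Miox, an enzyme of the same cells.

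Promoter sequences are shown for 3 enzymes that lay far apart between the genotypes, Miox, Prodh2 and Bhmt, to give the letters behind the motif counts that follow. They are RefSeq sequences of the assembly GRCr8, each of 300 bases, with 250 bases before and 50 after the annotated start, written 5′ to 3′ on the strand of the gene. The capitals mark the hepatocyte nuclear factor 1 (HNF1) half-site GTTAAT, which reads ATTAAC where it lies on the reverse strand, and the TATA box TATAAA. The Miox window lies at chr7:122284410-122284709 on the plus strand, the Prodh2 window at chr1:94880837-94881136 on the plus strand, and the Bhmt window at chr2:26614380-26614679 on the minus strand.
Miox: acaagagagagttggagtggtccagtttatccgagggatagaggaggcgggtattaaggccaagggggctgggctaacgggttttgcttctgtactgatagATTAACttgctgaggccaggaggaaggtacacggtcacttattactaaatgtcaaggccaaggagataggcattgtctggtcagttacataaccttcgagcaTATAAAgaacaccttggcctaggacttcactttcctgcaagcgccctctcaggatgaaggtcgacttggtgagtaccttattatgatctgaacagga
Prodh2: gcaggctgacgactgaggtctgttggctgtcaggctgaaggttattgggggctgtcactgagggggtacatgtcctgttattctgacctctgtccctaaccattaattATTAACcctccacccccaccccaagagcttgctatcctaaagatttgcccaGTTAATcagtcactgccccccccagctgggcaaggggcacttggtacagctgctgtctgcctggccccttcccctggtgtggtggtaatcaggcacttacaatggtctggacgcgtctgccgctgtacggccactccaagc
Bhmt: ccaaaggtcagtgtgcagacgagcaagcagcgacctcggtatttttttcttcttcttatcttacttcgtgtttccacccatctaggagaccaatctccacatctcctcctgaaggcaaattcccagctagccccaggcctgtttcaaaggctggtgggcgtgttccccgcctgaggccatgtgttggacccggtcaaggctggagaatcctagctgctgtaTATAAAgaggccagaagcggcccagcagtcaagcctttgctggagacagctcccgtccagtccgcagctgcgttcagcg

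The Miox promoter held an HNF1 half-site at position -149 and a TATA box at -47, counted from the annotated start. Prodh2 had HNF1 half-sites at -142 and -91, and Bhmt had a TATA box at -29. Over the 46 members with a window, the HNF1 half-site occurred in 4 (8.7%), the other members being Hpd and Sardh, against 7.45% of the 33469 windows of the whole table. The TATA box occurred in 6 members (13%), against 14.2% of all windows. The HNF4 site TGNACTTTG was found in 0 of the 46, against 1.24% of all windows. All motifs were searched on both strands, and a match is a string of letters and not a measured binding site. These shares lay close to those of all windows and nothing was drawn from them. The 3 windows shown all held a motif, whereas those of Gldc (log2 fold change -3.37) and Hgd (-2.90), also far apart, held 0.

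Enzyme signals were lower in Cy/+ kidneys in nearly every branch of the pathway. Of the 55 genes, 51 passed the filter on dim probe sets, which kept the probe sets whose mean log2 signal was at or above the 40th percentile (a signal of 77.8). In Cy/+ kidneys 48 of these 51 were lower and 1 was higher at an adjusted p below 0.05 (limma, Benjamini-Hochberg over 18625 probe sets), and 2 did not pass. Among all probe sets tested, 31.3% were called lower and 35.8% higher. The median log2 fold change of the 51 enzymes was -1.60, against 0.09 over all 10645 genes tested, and 4.75% of those genes lay at or below the enzymes' median. Every Cy/+ array lay below every +/+ array in 48 of the 51 enzymes, against 35.3% of all probe sets tested. Every Cy/+ array lay above every +/+ array in 1 of the 51, against 39.5%. They were the same enzymes as those called lower and higher, so this is not a separate result. The median enzyme was at 33.3% of its +/+ mean. The members were chosen with earlier results of these data known, so these shares describe the list and carry no test of it.

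**Figure D1:**
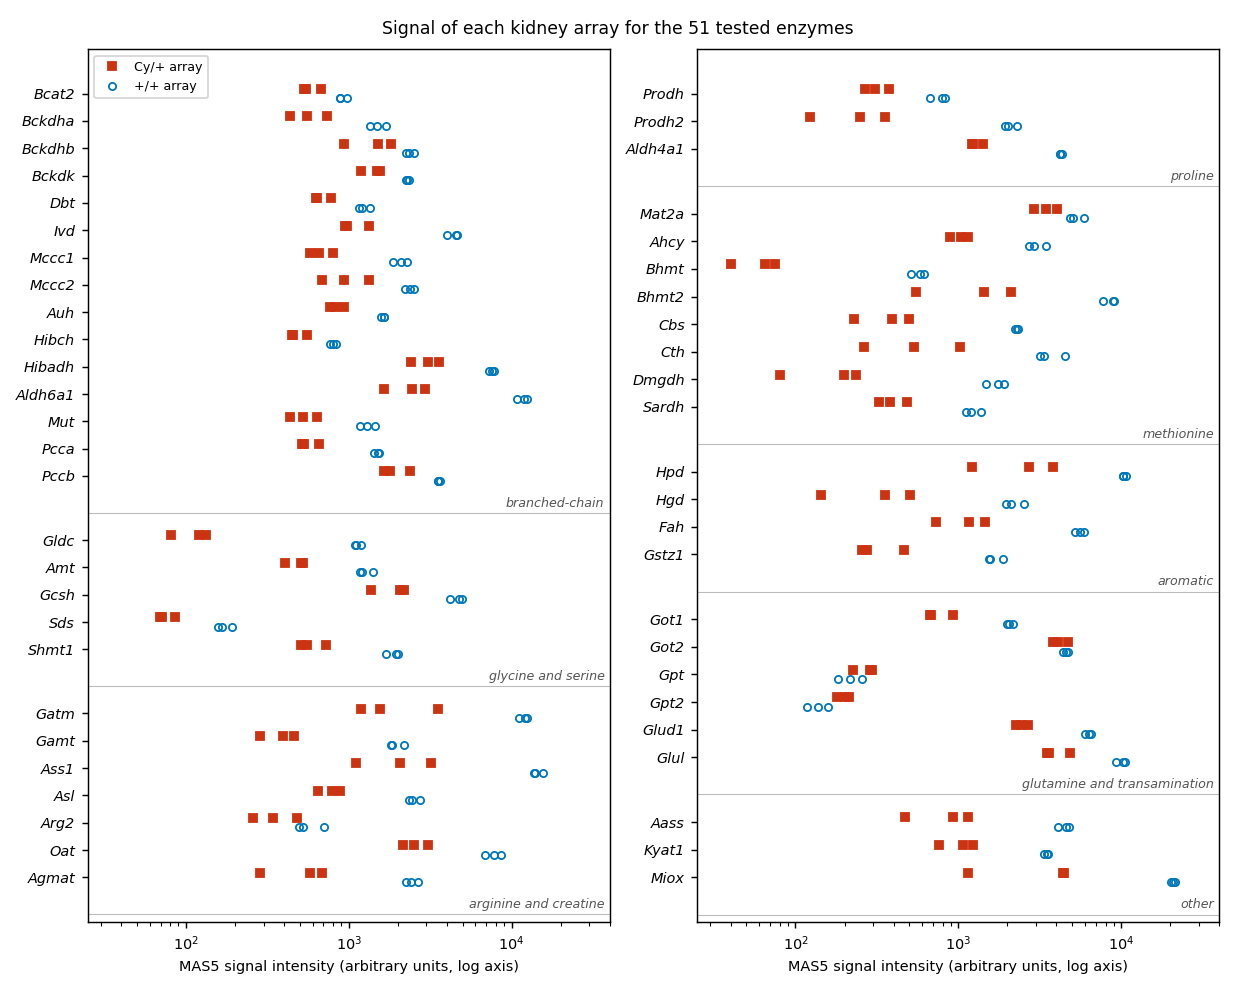
Signal of each array for the 51 tested enzymes, in arbitrary units on a log axis, with 1 point per array (filled squares, 3 Cy/+ arrays; open circles, 3 +/+ arrays) and enzymes arranged by group. The Cy/+ points lie to the left of the +/+ points in 48 enzymes, to the right in Gpt2, and among them in Got2 and Gpt.

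Cell type markers and measures of RNA quality also differed between the genotypes. All 19 tested markers of the proximal tubule were lower, at a median log2 fold change of -2.51, and their summed signal was 15081 to 35132 in Cy/+ kidneys, against 111457 to 119243 in +/+ kidneys. Slc34a1, the phosphate transporter of that segment, had signals of 880 to 3532 in Cy/+ kidneys and 16720 to 17520 in +/+ kidneys. Of 8 hepatocyte markers with a probe set, 5 were below the filter, among them Alb at 39.0 to 58.9 in Cy/+ kidneys and 51.8 to 70.3 in +/+ kidneys, and of the 3 tested Apob was lower while Fga and Ttr did not pass. Fgb, one of the 5, was higher on every Cy/+ array, at 246, 70.01 and 118, against 43.8, 53.5 and 42.9 in +/+ kidneys. All 8 tubular injury markers were higher, their median log2 fold change being 3.03, and 7 of 8 macrophage and 5 of 6 fibroblast markers were higher. Podocyte markers were lower in 4 of 5 and higher in 1, and endothelial markers lower in 6 of 8. Of 12 collecting duct markers 1 was lower, 2 were higher and 9 did not pass, and of 9 distal convoluted tubule or thick ascending limb markers 3 were lower, 3 were higher and 3 did not pass. Fewer cells of a type and less RNA per cell cannot be told apart in whole-kidney RNA. For Actb, signal of the 3′ probe set over that of the 5′ probe set came to 3.05, 3.09 and 3.53 on Cy/+ arrays and to at most 1.52 on +/+ arrays, a difference in the same direction on every array (exact two-sided permutation test, p = 0.1, the smallest that 3 against 3 allows). The same ratio of Gapdh was 1.74 to 1.92 on Cy/+ arrays and 1.15 to 1.22 on +/+ arrays. The poly-A spike controls had a median signal of 252 to 400 on Cy/+ arrays and 105 to 119 on +/+ arrays, and the hybridization controls one of 1478 to 2144 on Cy/+ arrays and 727 to 1106 on +/+ arrays. The part of cell composition, RNA quality and control signals in the enzyme results was not tested.

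Among the branched-chain enzymes, which remove leucine, isoleucine and valine, 15 of the 16 were tested and all 15 fell, to a median of 41.4% of +/+ and with log2 fold changes of -2.36 to -0.66. Aldh6a1, the methylmalonate semialdehyde dehydrogenase of the valine branch, gave signals of 2440, 1644 and 2955 on the Cy/+ arrays, against 11920, 12450 and 10760 on the +/+ arrays. The highest Cy/+ array lay well below the lowest +/+ array, and the log2 fold change was -2.36 ± 0.20 (SE, adjusted p = 8.74e-05). For Ivd, the isovaleryl-CoA dehydrogenase of leucine breakdown, signals were 952, 973 and 1339 in Cy/+ kidneys and 4561, 4643 and 4038 in +/+ kidneys. It fell by 2.04 ± 0.14 on the log2 scale (adjusted p = 4.64e-05). Mccc1, a subunit of the methylcrotonyl-CoA carboxylase that acts after Ivd, had signals of 578, 656 and 797 in Cy/+ kidneys and 2083, 2264 and 1883 in +/+ kidneys. Its groups did not overlap, and its log2 fold change was -1.63 ± 0.13 (adjusted p = 7.7e-05).

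The other tested branched-chain enzymes, in order of their steps, lay between 38.0% and 63.8% of +/+. Bcat2, the mitochondrial aminotransferase that starts the pathway, was at 63.8% of +/+, with signals of 532, 550 and 675 in Cy/+ kidneys and 890, 890 and 975 in +/+ kidneys. Of the branched-chain ketoacid dehydrogenase complex, Bckdha stood at 38.2%, Bckdhb at 59.97% and Dbt, its acyltransferase core, at 55.2%. Bckdk, the kinase that switches this complex off, was at 61.7%. Bckdhb was the least even of them, with signals of 931, 1516 and 1808 in Cy/+ kidneys and 2329, 2506 and 2260 in +/+ kidneys. Its log2 fold change of -0.79 ± 0.23 (adjusted p = 0.0176) did not pass without the +/+ 2 array (adjusted p = 0.0573).

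Further along, Mccc2, the partner subunit of Mccc1, was at 41.4% of +/+, and Auh, the methylglutaconyl-CoA hydratase of the leucine branch, at 51.7%. In the valine branch, the hydrolase Hibch stood at 60.7% and the dehydrogenase Hibadh at 40.04%. The propionyl-CoA carboxylase subunits Pcca and Pccb, which serve valine and isoleucine, were at 38.0% and 54.3%, and Mut, which passes their product to the citric acid cycle, was at 40.7%. Bcat1, the cytosolic aminotransferase, lay below the filter, with signals of 71.0, 63.8 and 64.8 in Cy/+ kidneys and 74.2, 72.4 and 82.1 in +/+ kidneys, and was not tested. Its other, dimmer probe set ran the opposite way, at 131, 77.2 and 61.5 in Cy/+ kidneys and 45.9, 42.8 and 41.4 in +/+ kidneys, so no direction is given for Bcat1.

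All 5 glycine and serine enzymes fell, to a median of 38.0% of +/+. Gldc, the decarboxylase of the mitochondrial glycine cleavage system, was among the enzymes farthest apart, with signals of 120, 133 and 81.6 in Cy/+ kidneys and 1189, 1108 and 1096 in +/+ kidneys. Its Cy/+ mean was 9.88% of the +/+ mean and its log2 fold change -3.37 ± 0.18 (adjusted p = 2.47e-05). The other components of that system changed less, Amt, its aminomethyltransferase, having signals of 526, 404 and 508 in Cy/+ kidneys and 1403, 1211 and 1165 in +/+ kidneys. Amt fell by 1.40 ± 0.13 on the log2 scale (adjusted p = 0.000116), and Gcsh, the lipoyl carrier protein, was at 40.5% of +/+. A difference between Gldc and its partners was not tested, and it rests on the brightest Gldc probe set. Dimmer Gldc probe sets, below the filter and not tested, were at 46.5% and 42.6% of +/+. Shmt1, the cytosolic serine hydroxymethyltransferase, gave 513, 552 and 728 in Cy/+ kidneys and 2014, 1946 and 1683 in +/+ kidneys, and fell by 1.67 ± 0.15 on the log2 scale (adjusted p = 9.45e-05). Sds, the serine dehydratase, was dim, at 69.5, 71.9 and 86.1 in Cy/+ kidneys and 158, 192 and 168 in +/+ kidneys. Since the Cy/+ mean of Sds was below the filter's signal, its difference is given as at least 2.21-fold lower against that signal.

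In the arginine and creatine group all 7 enzymes fell, to a median of 21.2% of +/+. This median describes the 7 listed enzymes only. The 8 other arginine and creatine genes tested had a median of 119% of +/+, with 4 lower and 4 higher. Ass1, the argininosuccinate synthase with which the kidney turns citrulline into arginine, gave signals of 3197, 1102 and 2055 in Cy/+ kidneys and 15490, 13700 and 13960 in +/+ kidneys. Every Cy/+ array was far below the +/+ arrays, the Cy/+ 2 array most of all, and the log2 fold change was -2.89 ± 0.34 (adjusted p = 0.000314). Asl, the lyase that follows it, was at 30.9% of +/+. Gatm, the amidinotransferase of the first step of creatine synthesis, had signals of 3531, 1188 and 1555 in Cy/+ kidneys and 12120, 12440 and 11130 in +/+ kidneys. It fell by 2.67 ± 0.36 on the log2 scale (adjusted p = 0.000586), although its Cy/+ arrays differed among themselves by 2.97-fold. For Gamt, the methyltransferase that completes creatine, signals were 394, 284 and 459 in Cy/+ kidneys and 1828, 2188 and 1847 in +/+ kidneys, a log2 fold change of -2.39 ± 0.18 (adjusted p = 5.6e-05).

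The other enzymes of this group act on arginine or on products made from it. Agmat, which splits agmatine to putrescine, was at 21.2% of +/+ and Oat, the ornithine aminotransferase, at 33.3%. Arg2, the mitochondrial arginase, came closest to overlap, with signals of 257, 485 and 342 in Cy/+ kidneys and 522, 705 and 498 in +/+ kidneys. Its log2 fold change of -0.70 ± 0.24 (adjusted p = 0.0355) was the least secure call among the lower enzymes and was lost when any array except Cy/+ 2 was left out, with adjusted p values of 0.0549 to 0.117.

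All 3 proline enzymes with a probe set fell. Prodh2, the dehydrogenase that begins the breakdown of hydroxyproline, an amino acid of collagen, had signals of 353, 123 and 250 in Cy/+ kidneys and 2281, 2010 and 1939 in +/+ kidneys. The Cy/+ mean was 11.7% of the +/+ mean, and Prodh2 fell by 3.22 ± 0.35 on the log2 scale (adjusted p = 0.000209). Prodh, which acts on proline itself, was at 41.6%, with signals of 310, 267 and 374 in Cy/+ kidneys and 665, 827 and 792 in +/+ kidneys (log2 fold change -1.27 ± 0.15, adjusted p = 0.000286). Aldh4a1, the dehydrogenase that both routes share, was among the most even across arrays, at 1233, 1217 and 1419 in Cy/+ kidneys and 4346, 4185 and 4186 in +/+ kidneys. It fell by 1.72 ± 0.08 on the log2 scale (adjusted p = 2.14e-05).

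The methionine group had the lowest median of the groups, at 16.5% of +/+, and all 8 of its enzymes fell. That median holds for the 8 listed enzymes. The 16 other methionine genes tested had a median of 51.1% of +/+, with 11 lower, 1 higher and 4 that did not pass. Among the 8, the enzymes of betaine use were prominent. Bhmt, which remethylates homocysteine with betaine, had signals of 64.8, 40.1 and 74.6 in Cy/+ kidneys and 618, 577 and 513 in +/+ kidneys. All 3 Cy/+ arrays lay below the filter's signal, so the difference is given as at least 7.29-fold lower (fitted log2 fold change -3.29 ± 0.23, adjusted p = 4.37e-05). Dmgdh, the dimethylglycine dehydrogenase that takes up the product of Bhmt, had signals of 198, 80.8 and 234 in Cy/+ kidneys and 1741, 1905 and 1479 in +/+ kidneys. It fell by 3.45 ± 0.37 on the log2 scale (adjusted p = 0.000214). Sardh, which acts on the sarcosine that Dmgdh forms, was at 32.2% of +/+ in its brightest probe set and at 16.8% in its dimmer one. Bhmt2, a related methyltransferase that uses S-methylmethionine, had signals of 1435, 552 and 2111 in Cy/+ kidneys and 8926, 9009 and 7727 in +/+ kidneys, and fell by 2.85 ± 0.44 on the log2 scale (adjusted p = 0.00106). Whether the probe sets of Bhmt and Bhmt2 take up each other's transcript was not tested.

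The transsulfuration enzymes Cbs and Cth, which carry homocysteine to cysteine, stood at 16.4% and 16.5% of +/+. Cth had the widest Cy/+ spread of the group, with signals of 534, 264 and 1027 in Cy/+ kidneys and 3346, 4500 and 3177 in +/+ kidneys, and its groups still lay far apart. Ahcy, which hydrolyses S-adenosylhomocysteine, was at 33.8%. Mat2a, which makes S-adenosylmethionine in most tissues outside the liver, was the least changed of the group, at 65.7%, with signals of 2893, 3454 and 4030 in Cy/+ kidneys and 5045, 5913 and 4834 in +/+ kidneys.

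Consecutive steps of tyrosine breakdown fell together. The 4 tested aromatic enzymes, which act in the order Hpd, Hgd, Gstz1 and Fah, were at 24.8%, 15.1%, 19.9% and 20.0% of +/+. Hgd, the homogentisate dioxygenase, had signals of 352, 144 and 503 in Cy/+ kidneys and 2108, 2534 and 1970 in +/+ kidneys (log2 fold change -2.90 ± 0.42, adjusted p = 0.000772). For Fah, the fumarylacetoacetate hydrolase of the last step, signals were 1157, 731 and 1452 in Cy/+ kidneys and 5592, 5903 and 5216 in +/+ kidneys (log2 fold change -2.38 ± 0.23, adjusted p = 0.000141). Gstz1, the maleylacetoacetate isomerase, gave 273, 255 and 463 in Cy/+ kidneys and 1565, 1876 and 1533 in +/+ kidneys (log2 fold change -2.38 ± 0.23, adjusted p = 0.000132). No array of Cy/+ came near a +/+ array in these enzymes. Hpd, the hydroxyphenylpyruvate dioxygenase, gave signals of 3811, 1218 and 2706 in Cy/+ kidneys and 10690, 10240 and 10300 in +/+ kidneys. Tat, the tyrosine aminotransferase that opens the pathway in the liver, lay at 24.2 to 26.4 in Cy/+ kidneys and 28.0 to 28.1 in +/+ kidneys, below the filter in both genotypes.

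**Figure D2:**
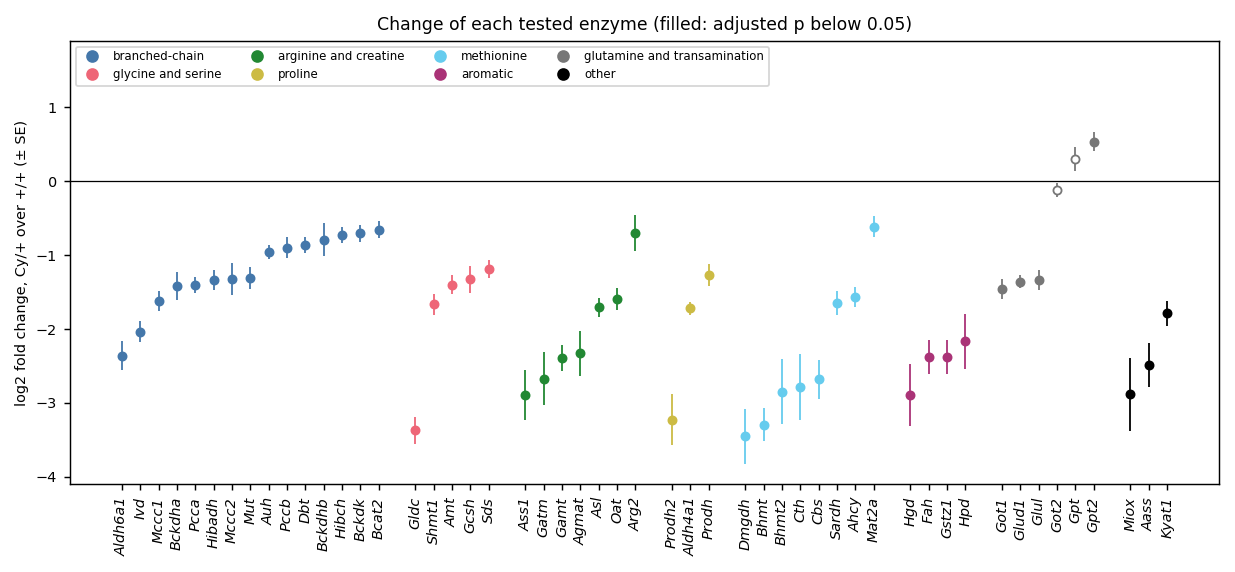
Log2 fold change of Cy/+ over +/+ for the 51 tested enzymes, as points with standard errors and coloured by group, ordered by size within each group. Filled points have an adjusted p below 0.05 and open points do not. Dmgdh is the lowest point at -3.45, Gpt2 the only filled point above 0, and the open points are Got2 and Gpt.

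Glutamine and transamination enzymes were the group that did not move as one. Glul, the glutamine synthetase, gave signals of 3605, 3521 and 4868 in Cy/+ kidneys and 10190, 10530 and 9319 in +/+ kidneys, and fell by 1.34 ± 0.13 on the log2 scale (adjusted p = 0.000162). Glud1, the glutamate dehydrogenase that releases ammonia, had signals of 2428, 2254 and 2681 in Cy/+ kidneys and 6339, 6485 and 6008 in +/+ kidneys (log2 fold change -1.36 ± 0.09, adjusted p = 3.58e-05). Got1, the cytosolic aspartate aminotransferase, had 677, 667 and 922 in Cy/+ kidneys and 2042, 1982 and 2155 in +/+ kidneys (log2 fold change -1.46 ± 0.14, adjusted p = 0.000117). These 3 were lower on every Cy/+ array.

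The remaining aminotransferases of this group were not lower. Got2, the mitochondrial aspartate aminotransferase, overlapped between the genotypes, with signals of 3825, 4094 and 4732 in Cy/+ kidneys and 4705, 4376 and 4589 in +/+ kidneys. Its log2 fold change was -0.12 with a 95% confidence interval of -0.34 to 0.11 (adjusted p = 0.305). The cytosolic alanine aminotransferase Gpt also overlapped, at 225, 296 and 288 in Cy/+ kidneys and 217, 257 and 183 in +/+ kidneys (log2 fold change 0.30, 95% confidence interval -0.08 to 0.69, adjusted p = 0.134). Without the Cy/+ 1 array Gpt passed, at a log2 fold change of 0.43 (adjusted p = 0.0341). Gpt2, the mitochondrial alanine aminotransferase, was the enzyme that rose, with signals of 213, 181 and 202 in Cy/+ kidneys and 118, 136 and 159 in +/+ kidneys. All its Cy/+ arrays were above all its +/+ arrays, and the log2 fold change was 0.54 ± 0.13 (95% confidence interval 0.22 to 0.85, adjusted p = 0.00959). A dimmer probe set of Gpt2, below the filter and not tested, ran the other way, at 47.5, 34.7 and 42.3 in Cy/+ kidneys and 54.4, 62.6 and 57.7 in +/+ kidneys.

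The 3 tested enzymes outside these groups all fell. Miox, the myo-inositol oxygenase, gave signals of 4383, 1146 and 4427 in Cy/+ kidneys and 21300, 20280 and 20630 in +/+ kidneys. The +/+ arrays were nearly equal, the Cy/+ 2 array was far below its partners, and the log2 fold change was -2.88 ± 0.49 (adjusted p = 0.00167). Its fold difference was 7.37-fold lower with all arrays and 4.71-fold lower without the Cy/+ 2 array. Aass, the aminoadipate semialdehyde synthase of lysine breakdown, had signals of 1147, 473 and 922 in Cy/+ kidneys and 4581, 4755 and 4073 in +/+ kidneys (log2 fold change -2.49 ± 0.30, adjusted p = 0.000338). Kyat1, which transaminates kynurenine and glutamine, had 1074, 764 and 1223 in Cy/+ kidneys and 3499, 3555 and 3335 in +/+ kidneys (log2 fold change -1.79 ± 0.17, adjusted p = 0.000119). Hal, the histidine ammonia-lyase, lay below the filter, at 25.6 to 29.1 in Cy/+ kidneys and 28.7 to 37.7 in +/+ kidneys.

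The Cy/+ arrays differed among themselves more than the +/+ arrays did. The highest over the lowest array of a genotype was 1.48 in the median enzyme in Cy/+ kidneys and 1.16 in +/+ kidneys, against 1.24 and 1.12 over all genes tested. Cy/+ arrays differed by more than 2-fold in 12 enzymes, in all of which Cy/+ 2 was the lowest, and +/+ arrays in 0. These 12 were among the 19 enzymes at or below 25% of +/+. In the 20 enzymes between 25% and 50% of +/+, Cy/+ 2 was the lowest array in 14 and Cy/+ 1 in 6. In the 9 enzymes between 50% and 75% of +/+, Cy/+ 1 was the lowest array in 8 and Cy/+ 2 in 1.

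The same array stood apart in the proximal tubule markers. On the Cy/+ 1, 2 and 3 arrays the median methionine enzyme was at 17.03%, 8.53% and 26.5% of its +/+ mean, the median arginine and creatine enzyme at 25.9%, 14.6% and 28.1%, and the median aromatic enzyme at 18.5%, 12.4% and 26.0%. The median proximal tubule marker was at 23.2%, 8.38% and 20.6%. The glycine and serine enzymes (40.4%, 29.8% and 40.5%) and the other enzymes (25.7%, 10.6% and 21.4%) were also lowest on Cy/+ 2. The branched-chain enzymes showed no such gap between Cy/+ 1 and Cy/+ 2, at 40.4%, 39.2% and 56.1%. Neither did the proline enzymes (29.1%, 28.7% and 33.5%) nor those of glutamine and transamination (57.0%, 56.8% and 71.1%). Other markers ordered the Cy/+ arrays differently. The median collecting duct marker was at 69.2%, 179.6% and 132.2% on Cy/+ 1, 2 and 3, and Cy/+ 1 was lowest in all 12 of those markers. Without the Cy/+ 2 array the median log2 fold change of the 51 enzymes was -1.47 and 48 were still called lower.

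**Figure D3:**
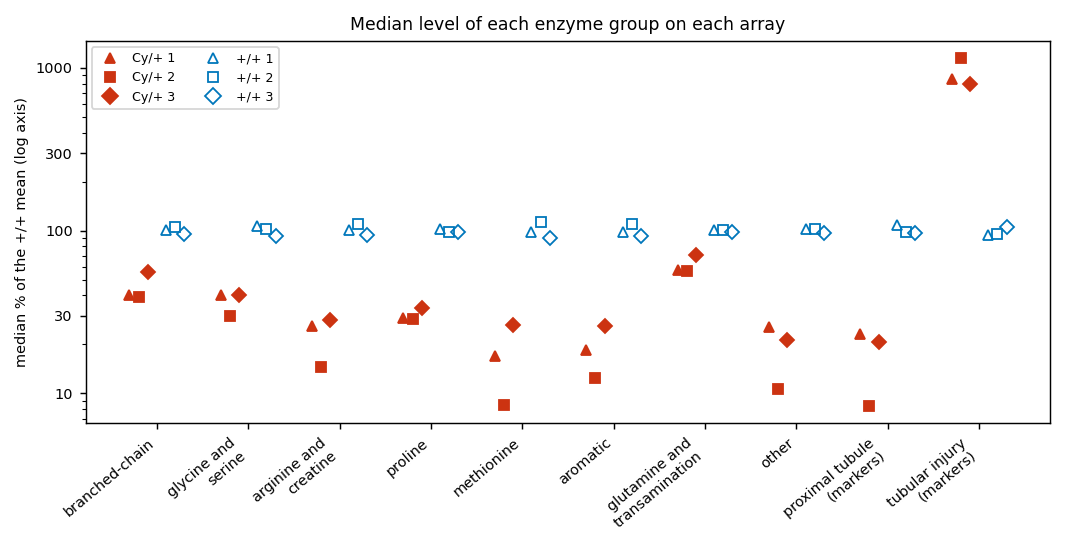
Median level of each enzyme group and of the proximal tubule and tubular injury markers on each array, in percent of the gene's +/+ mean on a log axis, with 1 symbol per array (filled, Cy/+; open, +/+; triangle, square and diamond for arrays 1, 2 and 3). The Cy/+ 2 square is lowest for the methionine enzymes at 8.53% and for the proximal tubule markers at 8.38%, and the injury markers lie at 797% to 1149% on the Cy/+ arrays.

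Probe sets of the same gene did not always report the same size of change. Of the 10 enzymes with more than 1 tested probe set, 8 had the same call in all of them. Glul was lower in all 3 of its probe sets, with log2 fold changes of -0.45, -1.34 and -2.59. Mat2a was also lower in both of its tested probe sets, but at -0.61 in the brightest and -2.92 in the dimmer, which gave 304, 284 and 443 in Cy/+ kidneys and 2463, 3044 and 2239 in +/+ kidneys. The mildness of the Mat2a change therefore holds for its brightest probe set alone. Mut ranged over -2.50, -1.78 and -1.31, Aldh6a1 over -3.91 and -2.36, and Gatm over -2.67 and -1.17. The Cy/+ mean of the dimmer Gatm probe set was below the filter's signal, so its difference is given as at least 1.77-fold lower. The part of the transcript that each probe set covers was not examined.

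Bckdha and Got2 were the enzymes whose probe sets disagreed in call. Bckdha, a subunit of the ketoacid dehydrogenase, had signals of 438, 553 and 736 in Cy/+ kidneys and 1502, 1683 and 1343 in +/+ kidneys in its brightest probe set (log2 fold change -1.42 ± 0.19, adjusted p = 0.000555). A dimmer one gave 256, 426 and 268 in Cy/+ kidneys and 218, 223 and 244 in +/+ kidneys (log2 fold change 0.43, adjusted p = 0.0873). The mean of both was lower, at -0.49 (adjusted p = 0.0186). The dimmer Got2 probe set was higher in Cy/+ kidneys, at 130, 176 and 206 against 64.2, 73.2 and 75.04 in +/+ kidneys (log2 fold change 1.24 ± 0.18, adjusted p = 0.0007). With its +/+ mean below the filter's signal, this probe set was at least 2.15-fold higher.

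**Figure D4:**
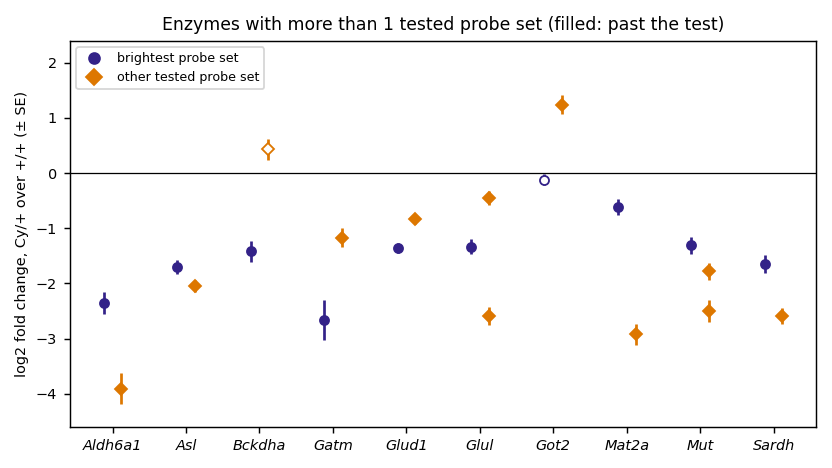
Log2 fold change of Cy/+ over +/+ with standard errors for each tested probe set of the 10 enzymes that have more than 1 (circles, the brightest probe set; diamonds, the others; filled, adjusted p below 0.05). Bckdha and Got2 have points on both sides of 0, and the other 8 enzymes lie below 0 in every probe set.

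Other genes of the same pathways, 95 in all, were taken by their place in textbook pathways, also with earlier results of these data known. Of them 83 had a probe set and 70 were tested, of which 55 were lower, 8 higher and 7 did not pass, and their median log2 fold change was -1.49. Among all probe sets tested, 31.3% were called lower and 35.8% higher, and the counts carry no test of the list. Ddc, the aromatic amino acid decarboxylase that makes dopamine in the proximal tubule, gave 84.0, 47.4 and 43.1 in Cy/+ kidneys and 2926, 2484 and 2499 in +/+ kidneys. With its Cy/+ mean below the filter's signal, Ddc was at least 33.8-fold lower (adjusted p = 2.02e-05), and in the same way Acadsb, the short/branched-chain acyl-CoA dehydrogenase of isoleucine breakdown, was at least 4.199-fold lower. The lower genes of largest change whose means both reached the filter's signal were Abat, Aspa and Glyctk. Abat, the transaminase of gamma-aminobutyrate, gave 91.9, 47.0 and 140 in Cy/+ kidneys and 1335, 1426 and 1125 in +/+ kidneys (log2 fold change -3.93 ± 0.36, adjusted p = 0.000112). Aspa, which splits N-acetylaspartate, had a log2 fold change of -3.25 and Glyctk, the glycerate kinase, of -3.00. The rising genes of largest change were Mtap, which recycles methylthioadenosine to methionine, at 1.70, Ddah2, which breaks down methylated arginines, at 1.07, and Asns, the asparagine synthetase, at 0.94.

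In the arginine and creatine group 4 of these other genes were lower and 4 higher of 8 tested. The proline, methionine, glutamine and transamination, and other groups each had 1 higher gene beside 3, 11, 6 and 11 lower ones, and the remaining groups had 0 higher. Ddah2 gave signals of 1006, 947 and 962 in Cy/+ kidneys and 439, 488 and 459 in +/+ kidneys, whereas its relative Ddah1 fell by 1.29 on the log2 scale. The creatine kinases Ckb and Ckmt1, which use creatine, had log2 fold changes of 0.69 and 0.86, opposite in sign to the creatine-making Gatm and Gamt. Of polyamine metabolism, Odc1 was lower at -1.49 and Sat1, the acetyltransferase that drives polyamine breakdown, higher at 0.66. Aldh18a1, which makes the precursor of proline from glutamate, was higher at 0.94, opposite to the proline-degrading Prodh, Prodh2 and Aldh4a1. Pycr3, also of proline synthesis, was lower at -0.37 (adjusted p = 0.00538), so the tested synthesis genes did not share a direction. Ckb, Ckmt1, Odc1, Sat1, Ddah1, Aldh18a1 and Pycr3 were named after their values were seen.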

How the data were processed

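RNA of 3 Cy/+ and 3 +/+ kidney samples was measured on Affymetrix arrays. The authors labeled total RNA by a one-cycle protocol, hybridised 1 array per sample and processed the images with GCOS, and MAS5 is named in the submitters' processing notes. Each deposited value is the signal intensity of a probe set on a linear scale, with a scaling target that is not given in the sources used here. Precision is limited by how few arrays there are.

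Values were taken to log2 without further scaling. Of 31099 probe sets, 57 controls were left out, and 18625 with a mean log2 signal at or above the 40th percentile (6.28) were tested for genotype alone in R 4.3.3 by limma 3.58.1, whose eBayes step followed the intensity trend, with Benjamini-Hochberg over all of them and a threshold of 0.05. Fold changes are Cy/+ over +/+. The platform annotation gave 1 symbol for 20832 probe sets, several for 436, which name no gene here, and none for 9831. The brightest probe set stood for a gene.

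Given in full were, per group, the 3 called enzymes of largest change with non-overlapping arrays, every enzyme called higher and every enzyme whose tested probe sets disagreed in sign or call; other enzymes are given by level, range or count, and some with their arrays, chosen after their values were seen. Of the other pathway genes, the 3 called of largest change each way with both means at or above the filter's signal are named, and Ddc and Acadsb, whose Cy/+ means were below it, were added after their values were seen. The enzymes, groups, pathway genes and markers were chosen with earlier results of these data known. Alternatives were the scaling, low signals, the filter, the variance model, the test, a gene's probe sets, a replicate block and leaving out each array.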

Additional observations from a re-analysis of the deposited data

How the results depend on the processing

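Under 19 alternatives, 47 of the 51 enzymes kept their direction and their side of the threshold wherever they were tested, and the enzymes lower in Cy/+ kidneys numbered 46 to 48. The exceptions were Bckdhb, with adjusted p values of 0.00313 to 0.0781, Arg2 (0.00602 to 0.117), Gpt, which passed without Cy/+ 1, and Got2. Got2 changed sign with quantile normalization, to 0.11 (adjusted p = 0.329), and when a gene's probe sets were averaged, to 0.56 (adjusted p = 0.0068). The enzymes higher in Cy/+ kidneys, all of the glutamine and transamination group, numbered 0 with a filter at the 60th percentile, which leaves Gpt2 untested, 2 when a gene's probe sets were averaged, and 1 to 2 when each array was left out. That averaging also moved the log2 fold change of Aldh6a1 to -3.13, Gatm to -1.92, Mat2a to -1.77 and Bckdha to -0.49. The methods' t-test called 46 enzymes lower and 1 higher, both at their threshold and after Benjamini-Hochberg. Centring each array on its median shifted every log2 fold change by -0.069. Deviations of same-numbered samples correlated at -0.15 to 0.15, which with 3 arrays per genotype cannot decide whether the replicate numbers pair the samples. With the number as a replicate block, 11633 probe sets were called, against 12491, and 48 enzymes were lower and 1 higher.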
